A study of Homo sapiens with 12 samples.

Results

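The regions described here are intergenic H3K9me3 peaks in intervals around 9 human centromeres. They were called in the human line 293T, once in wild-type (WT) cells and once in SMARCA3 knockout (KO) cells. They were taken by position and class alone. A peak entered when the authors' annotation gave it the class OtherIntergenic and its midpoint fell in 1 of 9 intervals of hg38. These are chromosome 1 from 121 to 126 Mb, chromosome 2 from 89 to 96 Mb, chromosome 4 from 48 to 52 Mb, chromosome 5 from 46 to 51 Mb, chromosome 10 from 38 to 43 Mb, chromosome 17 from 21.5 to 27 Mb, chromosome 18 from 15 to 21 Mb, chromosome 20 from 25 to 32 Mb and chromosome 22 from 10 to 18 Mb. The rule gave 1192 peaks of 112068 in all, 459 of 46898 in the WT list and 733 of 65170 in the KO list.

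Both genotypes are 293T, a line of human embryonic kidney origin that expresses the large T antigen of SV40. SMARCA3, now named HLTF, encodes a SNF2-family DNA translocase with a RING finger. The labels list 3 ChIP and 3 input libraries per genotype, made from untreated cells as far as they say, and do not say whether the knockout is a single clone. The values came from 1 peak list per genotype with no column per library, so no value has a measured spread between replicates, and library depth is unknown here. Intervals given are 95% intervals that cover the counting of peaks only and treat neighbouring peaks as independent.

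H3K9me3 marks constitutive heterochromatin. It is written by methyltransferases of the SUV39H and SETDB families and bound by HP1 proteins, and the heterochromatin around centromeres is its classical site. Human pericentromeres consist largely of alpha satellite and, on several chromosomes, of the classical human satellites, repeats arranged head to tail in long arrays. Because such copies resemble each other, short reads from them often fit several places. The sources used here do not say how such reads were handled.

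The satellite content of the peaks was not analysed here, as no genome sequence or repeat annotation was used. Position and gene content could be checked. The peaks lay far from genes, at a median of 478 kb from the nearest protein-coding gene in WT and 469 kb in KO, against 104 and 101 kb for all other intergenic peaks on chromosomes 1 to 22, X and Y. A table of human RefSeq genes places 84 protein-coding genes, 100 lncRNA genes and 291 pseudogenes in the intervals, which span 52.5 Mb. Of the peaks, 20 in WT (4.36%) and 45 in KO (6.14%) met a RefSeq gene of any kind, and these genes numbered 16. These shares were not set beside those of other intergenic peaks, so whether they are low is not known.

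The RefSeq table of promoters, running from 250 bases before to 50 after each gene start, holds 173 entries in the intervals, and 1 of them met a peak. It belongs to LOC105379418, a lncRNA gene on the plus strand of chromosome 22 from 10742092 to 10753062, and is shown because it is the only stretch of DNA under these peaks that the tables used here hold. The promoter spans chr22:10741842-10742141 (GRCh38.p14, plus strand), and the capitals mark the 56 bases inside a KO peak.
LOC105379418 promoter: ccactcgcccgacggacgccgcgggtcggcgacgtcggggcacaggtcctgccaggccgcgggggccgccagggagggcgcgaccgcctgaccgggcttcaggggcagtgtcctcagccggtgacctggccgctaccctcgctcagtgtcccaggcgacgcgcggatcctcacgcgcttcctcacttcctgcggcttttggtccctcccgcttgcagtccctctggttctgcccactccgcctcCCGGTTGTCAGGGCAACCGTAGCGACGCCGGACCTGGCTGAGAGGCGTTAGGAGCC
Its GC content was 72.0%. The KO peak runs from 10742086 to 10742375, with a fold enrichment of 2.29 and a q-value of 3.41e-04. Over the whole gene there were 7 KO peaks, the highest at fold 5.29, and 1 WT peak at fold 2.98.

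Many of the strongest intergenic H3K9me3 sites of both genotypes lay in these intervals. The fold enrichment is the authors' value per peak, read here as ChIP signal over background. Folds of 6 and above were reached by 77 of 459 WT peaks, 16.8% (13.6 to 20.5), where 2.56% of the whole WT list did so. In KO they were reached by 85 of 733, 11.6% (9.48 to 14.1), where the whole KO list had 2.84%. The excess over other intergenic peaks was 14.5 percentage points in WT (11.4 to 18.2) and 9.18 in KO (7.05 to 11.7). From fold 10 the intervals held 21 WT and 28 KO peaks, more than all other intergenic peaks on the chromosomes together, which had 16 and 21. Ranked by fold over every class, 7 of the top 10 WT and 7 of the top 10 KO peaks lay here, as did 29 and 33 of the top 100.

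**Figure D1:**
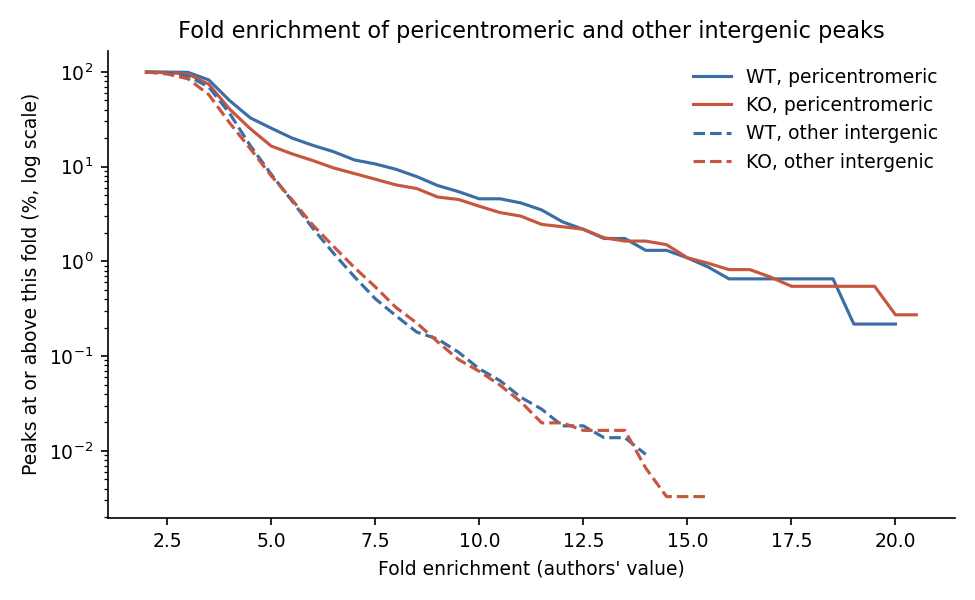
Share of peaks (percent, log scale) at or above each fold enrichment, for pericentromeric (solid) and other intergenic peaks (dashed) of the WT (blue) and KO (red) lists. From fold 4 the solid lines stay above the dashed ones, with 16.8% of WT and 11.6% of KO pericentromeric peaks at fold 6 or more against 2.23% and 2.42%.

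Most of these peaks were nevertheless ordinary in height and width. The median fold was 3.99 in WT (quartiles 3.61 and 5.07) and 3.82 in KO (3.43 and 4.51), where other intergenic peaks had 3.77 and 3.59. Median width was 463 bp in WT and 541 bp in KO, near the 472 and 521 bp of other intergenic peaks. Mean width was 968 and 1081 bp against 684 and 786 bp, because a few peaks were very wide. Peaks of 5 kb and wider numbered 11 in WT (2.40%, whole list 0.258%) and 22 in KO (3.001%, whole list 0.499%). They held 24.8% of the peak bases in WT and 28.6% in KO, where such peaks of the other intergenic class held 1.77% and 2.91%. High shares were not particular to these peaks. Among peaks of other annotation classes in the same intervals the share was 21.99% and 28.13%, resting on 2 WT and 4 KO peaks. Intergenic peaks on unplaced or alternate sequences had 12.7% and 24.9%. Those on chromosome 7 from 57 to 65 Mb had 5.61% and 1.27%.

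The fold values also differed in form. Many folds of each list lie on an even grid, that is, at whole steps of 1 size, and the others lie between. How the folds were computed is not given in the sources used here, and whether the grid reflects a background shared by those peaks was not tested. On the grid lay 84.3% of the pericentromeric WT peaks and 83.9% of the KO peaks, against 58.5% and 54.1% of other intergenic peaks. The differences were 25.8 (22.1 to 28.9) and 29.8 (26.9 to 32.3) percentage points. This was not particular to the 9 intervals, since intergenic peaks on chromosome 7 from 57 to 65 Mb had 95.1% in WT and 83.8% in KO.

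More peaks and more bases were called in KO. The 733 KO peaks against 459 in WT made a ratio of 1.60 (1.42 to 1.79), and they covered 792708 bases against 444127, a ratio of 1.78. Other intergenic peaks had ratios of 1.40 (1.37 to 1.42) and 1.60. The ratio of peaks was thus 1.14 times that of other intergenic peaks (1.02 to 1.29). For the 382 WT and 648 KO peaks below fold 6 this excess was 1.22 (1.07 to 1.38), and from fold 6 it was 0.730 (0.526 to 1.01). Split at the median fold of both lists, 3.69, it was 1.21 (0.986 to 1.48) below the median and 1.34 (1.14 to 1.58) from there to fold 6. With peaks of a list within 1 kb joined the excess over all folds was 0.966 (0.813 to 1.15), and against intergenic peaks of the same 9 chromosomes 1.09. Its interval also held 1 without the interval of chromosome 5 (1.06, 0.927 to 1.22) or 10 (1.10, 0.968 to 1.25). The same was found without that of chromosome 18 (1.12, 0.996 to 1.26) or 22 (1.07, 0.947 to 1.21). Without 1 block of chromosome 5, described below, the ratio of bases was 1.59.

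The intervals differed among themselves. All 9 held more peak bases in KO, while 7 held more peaks and 2 held fewer. Chromosome 5 had 104 WT and 207 KO peaks, with 54649 and 166739 bases, and accounted for 32.2% of the whole difference of 348581 bases. Chromosome 10 had 76 and 144 peaks with 123652 and 196454 bases, the most bases of any interval in both lists. Chromosomes 22 and 18 had the highest ratios of peaks, 3.64 (2.28 to 5.80) with 22 and 80 peaks, and 4.40 (1.72 to 11.2) with 5 and 22.

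Chromosome 2 had 34 and 59 peaks, chromosome 20 had 69 and 89, and chromosome 4 had 39 and 44. The 2 intervals with fewer KO peaks were those of chromosome 1, with 50 and 33 peaks, and chromosome 17, with 60 and 55. Their bases were nonetheless 1.21 and 1.49 times as many in KO. Mean width there was 877 bp in WT and 1608 bp in KO on chromosome 1, and 654 and 1065 bp on chromosome 17.

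**Figure D2:**
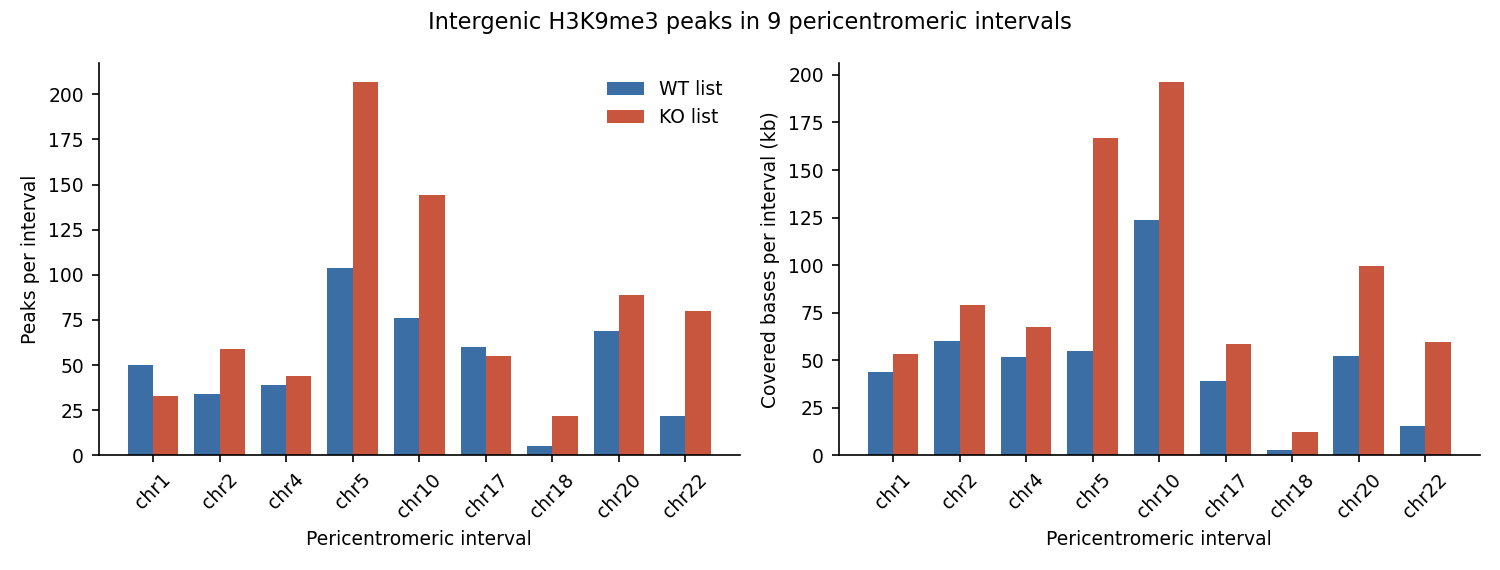
Peaks (left) and covered bases in kb (right) in each of the 9 intervals, with the WT list in blue and the KO list in red. Covered bases are higher in KO in all 9 intervals, while chromosomes 1 and 17 have fewer KO peaks.

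Each interval was then set beside the remaining intergenic peaks of its own chromosome, since the lists differ from chromosome to chromosome. On chromosome 22 the ratio of peaks was 2.07 times that of the rest of the chromosome (1.24 to 3.45), which stood at 1.76. The corresponding values were 3.13 (1.18 to 8.34) on chromosome 18, 1.54 (1.15 to 2.06) on chromosome 10 and 1.33 (1.04 to 1.71) on chromosome 5. On chromosomes 1 and 17 the intervals lay below the rest of their chromosomes, at 0.566 (0.364 to 0.882) and 0.546 (0.369 to 0.809). For chromosomes 2, 4 and 20 the counting interval held 1. The ratio of bases was below that of the rest of the chromosome in 5 of the 9 intervals, with 1.21 against 1.33 on chromosome 1, 1.32 against 1.77 on chromosome 2, 1.31 against 1.67 on chromosome 4, 1.49 against 1.97 on chromosome 17 and 1.90 against 2.19 on chromosome 20. It was above it on chromosomes 5, 10, 18 and 22.

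**Figure D3:**
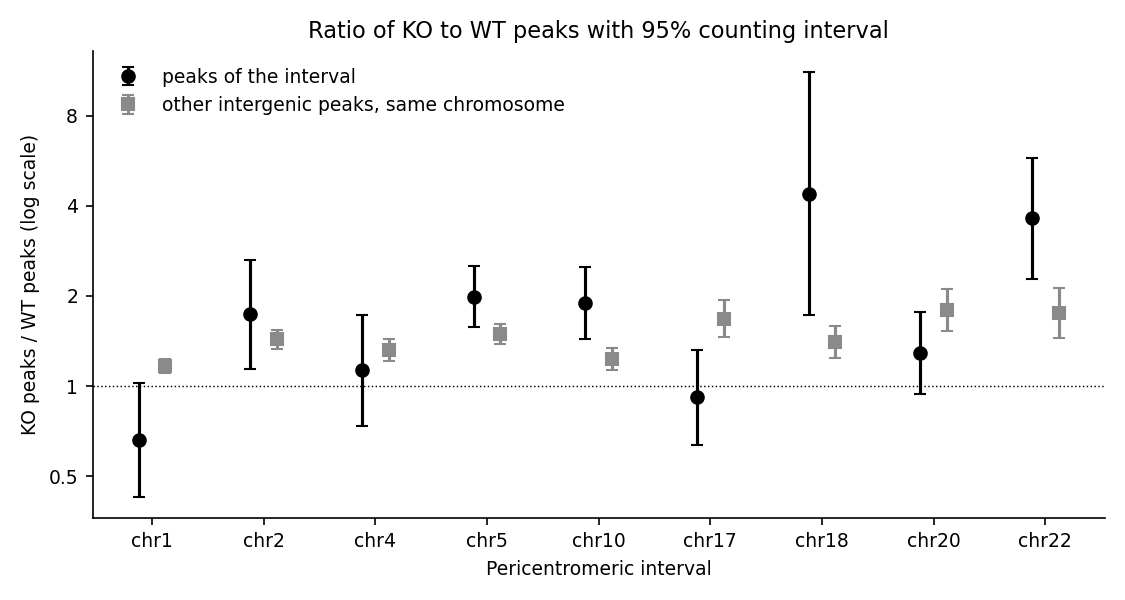
Ratio of KO to WT peaks (log scale) for the pericentromeric peaks of each interval (black circles) and for all other intergenic peaks of the same chromosome (grey squares), with 95% counting intervals as bars. Chromosomes 5, 10, 18 and 22 lie above the rest of their chromosome and chromosomes 1 and 17 below it.

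Strong sites were called in both genotypes. Of the WT peaks 401, or 87.4% (84.0 to 90.1), met a KO peak by at least 1 bp. The 58 that met none make 12.6%, where 20.1% of the WT list met none. Of the KO peaks 311, or 42.4% (38.9 to 46.04), met a WT peak, and 422 met none, where 49.4% of the KO list met none. Compared with other intergenic peaks, the share that met the other list was 9.83 percentage points higher in WT (6.43 to 12.6), and KO minus other was -6.82 points (-10.4 to -3.17). Peaks called in KO alone had a median fold of 3.66 and a median width of 425 bp, against 4.36 and 911 bp for KO peaks that met a WT peak. Of the KO peaks of fold 6 and above, 98.8% met a WT peak of any fold, and so did 98.8% of other intergenic KO peaks of such fold. In WT the share was 97.4%, and other intergenic WT peaks had 99.8%, a difference of -2.39 points (-8.78 to -0.284), so the sharing of strong peaks was not particular to the intervals.

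Where both lists had a peak, KO peaks were higher and wider, to a larger extent than over all other intergenic peaks. Parts of like kind showed a similar trait among peaks that met the other list. Median widths of such peaks were 503 bp in WT and 911 bp in KO here. They were 414 and 1010 bp on chromosome 7 from 57 to 65 Mb, and 497 and 1296 bp on unplaced or alternate sequences. Median folds were 4.09 and 4.36 here, 3.69 and 4.13 on chromosome 7, and 4.24 and 5.22 on unplaced or alternate sequences. Overlapping peaks were merged into 758 regions, of which 278 held peaks of both lists, 58 of WT alone and 422 of KO alone. Other intergenic peaks made 33922 regions, with 13489 of both lists, 4969 of WT alone and 15464 of KO alone. The highest fold was greater in KO in 211 of the 278, or 75.9% (70.5 to 80.6), where 52.4% of other intergenic regions in both lists had this. The difference was 23.5 percentage points (18.1 to 28.2), and the median ratio of KO to WT fold was 1.11 against 1.01.

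More bases were called in KO in 249 of the 278 regions, or 89.6%, where other intergenic regions had 70.9%. The median ratio of bases was 1.46 against 1.22. In 53 regions a single KO peak covered several WT peaks, 144 in all. That is 19.1% of the 278 (14.9 to 24.1), beside 15.4% elsewhere, a difference whose interval held 0 (-0.584 to 8.71 points).

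**Figure D4:**
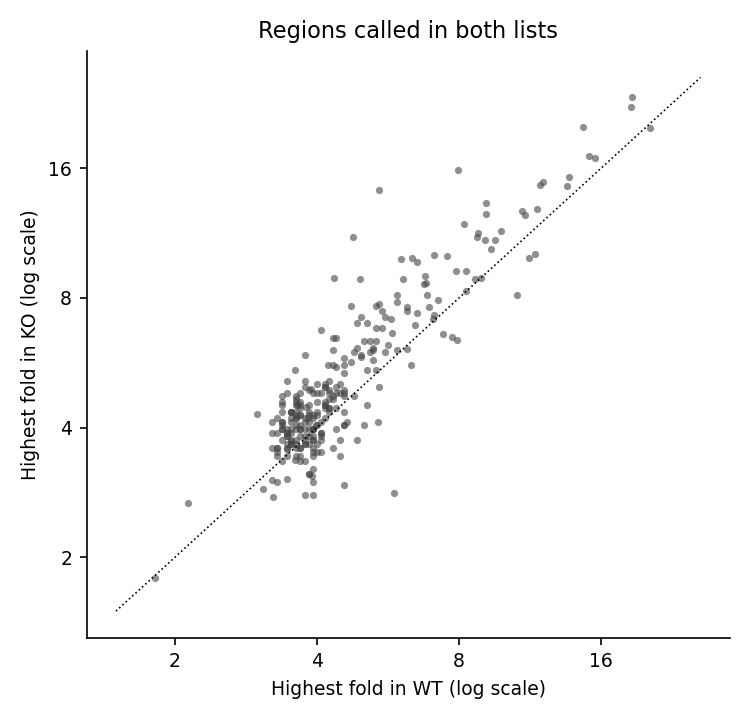
Highest fold enrichment in KO against WT (both axes log scale) for the 278 regions with peaks of both lists, 1 point per region, with a dotted line of equality. In 211 regions the point lies above the line.

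The peaks were clustered. With peaks of both lists up to 50 kb apart put together, a distance chosen after the values were seen, they formed 81 blocks. The 30 blocks of 8 or more peaks held 91.7% of the WT and 85.4% of the KO peaks. The median gap to the nearest peak of the same list was 404 bp in WT and 306 bp in KO, against 687 and 643 bp for other intergenic peaks. KO bases exceeded WT bases in 29 of the 30 large blocks, and the highest fold was greater in KO in 28. In 12 of them KO had fewer peaks, and in 11 of these 12 it nonetheless had more bases. Another 30 blocks held 59 KO peaks and no WT peak, and 4 blocks held 1 WT peak each and none of KO. Over the lists, 49.4% of KO peaks met no WT peak and 20.1% of WT peaks met no KO peak. Other intergenic peaks, whose bases in KO were 1.60 times those in WT, were not put into blocks. Whether any of these counts of blocks is high is therefore not known.

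Large blocks were also summed by their highest WT fold. In 9 large blocks with a WT fold of 10 or more, the 139 WT peaks covered 219046 bases and the 179 KO peaks 303524, a ratio of 1.39. In 16 large blocks whose WT peaks all stayed below fold 6, the 202 WT peaks covered 116010 bases and the 359 KO peaks 280300, a ratio of 2.42. The 5 blocks between had a ratio of 1.72. The weak class rested on the chromosome 5 block from 46 Mb, without which its ratio was 1.71. Single blocks overlapped between the classes, with ratios of 1.05 to 3.72 among the strong and 0.288 to 24.97 among the weak. These classes rest on the WT fold, so they are a description and no test was made of them.

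The strongest site of either list lay on chromosome 20, 181 kb from DEFB115, a beta-defensin gene. Over 24319 bp it held 8 WT and 6 KO peaks with 20369 and 21407 bases, so that 83.8% of the block was covered in WT and 88.0% in KO. Its peak from 31066739 to 31069485 had the highest WT fold, 20.3, and the KO peak there had 19.8. The adjoining peak from 31057660 to 31066551 had a WT fold of 18.6, and its KO counterpart had 23.4, the highest of the KO list. At the upper end, 3 WT peaks of folds 11.1, 12.6 and 13.7 matched a single KO peak of 5876 bp and fold 15.3. The borders of the large peaks nearly coincided between genotypes, as the map of blocks shows.

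On chromosome 10 a block of 199604 bp, 658 kb from the zinc finger gene ZNF33B, held 2 unlike parts. Its upper part, from 41842725 to 41916243, was almost filled in both genotypes. There 11 WT peaks of folds 8.07 to 18.5 covered 66207 bases, and 5 KO peaks covered 68053. The widest KO peak of all intervals, 35699 bp from 41880451 to 41916149 at fold 22.2, lay over 5 WT peaks with 35226 bases. A second wide KO peak, 23401 bp from 41842725 to 41866125, had a fold of 17.1. The highest WT peaks there had folds of 18.5 (10383 bp from 41880713), 15.1 (11989 bp from 41853774), 13.0 (3222 bp from 41891191) and 12.2 (10109 bp from 41906135). The lower part of the block was weak in both. It held 19 WT peaks with 9034 bases and folds of 2.59 to 4.24, and 50 KO peaks with 44205 bases and folds of 3.05 to 5.05. Outside this block, a WT peak of chromosome 10 from 38526625 to 38529868 had a fold of 13.5, and a KO peak of 11302 bp from 42310991 to 42322292 had one of 6.21.

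Chromosome 5 held the largest difference, in a block of low peaks from 46002411 to 46325133. It had 92 WT peaks of folds 3.22 to 4.48 and 196 KO peaks of folds 2.47 to 4.98. Covered bases were 40106 and 150535, or 12.4% and 46.6% of the block, and 31.7% of the difference over all intervals arose there. Median width was 381 bp in WT and 565 bp in KO, while the median folds were close, 3.61 and 3.66. KO peaks without a WT peak numbered 117 of 196, where 49.4% of the KO list met none. WT peaks without a KO peak numbered 13 of 92, where 20.1% of the WT list met none. Leaving this block out gave a ratio of 1.46 (1.28 to 1.67) for peaks and 1.59 for bases. Other intergenic peaks had 1.40 and 1.60, so the ratio of bases was then no longer above theirs. The excess of the ratio of peaks was then 1.05 (0.917 to 1.20). The interval's bound at 46 Mb cuts through a longer run of such peaks, with 23 WT and 82 KO intergenic peaks in the megabase below it.

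**Figure D5:**
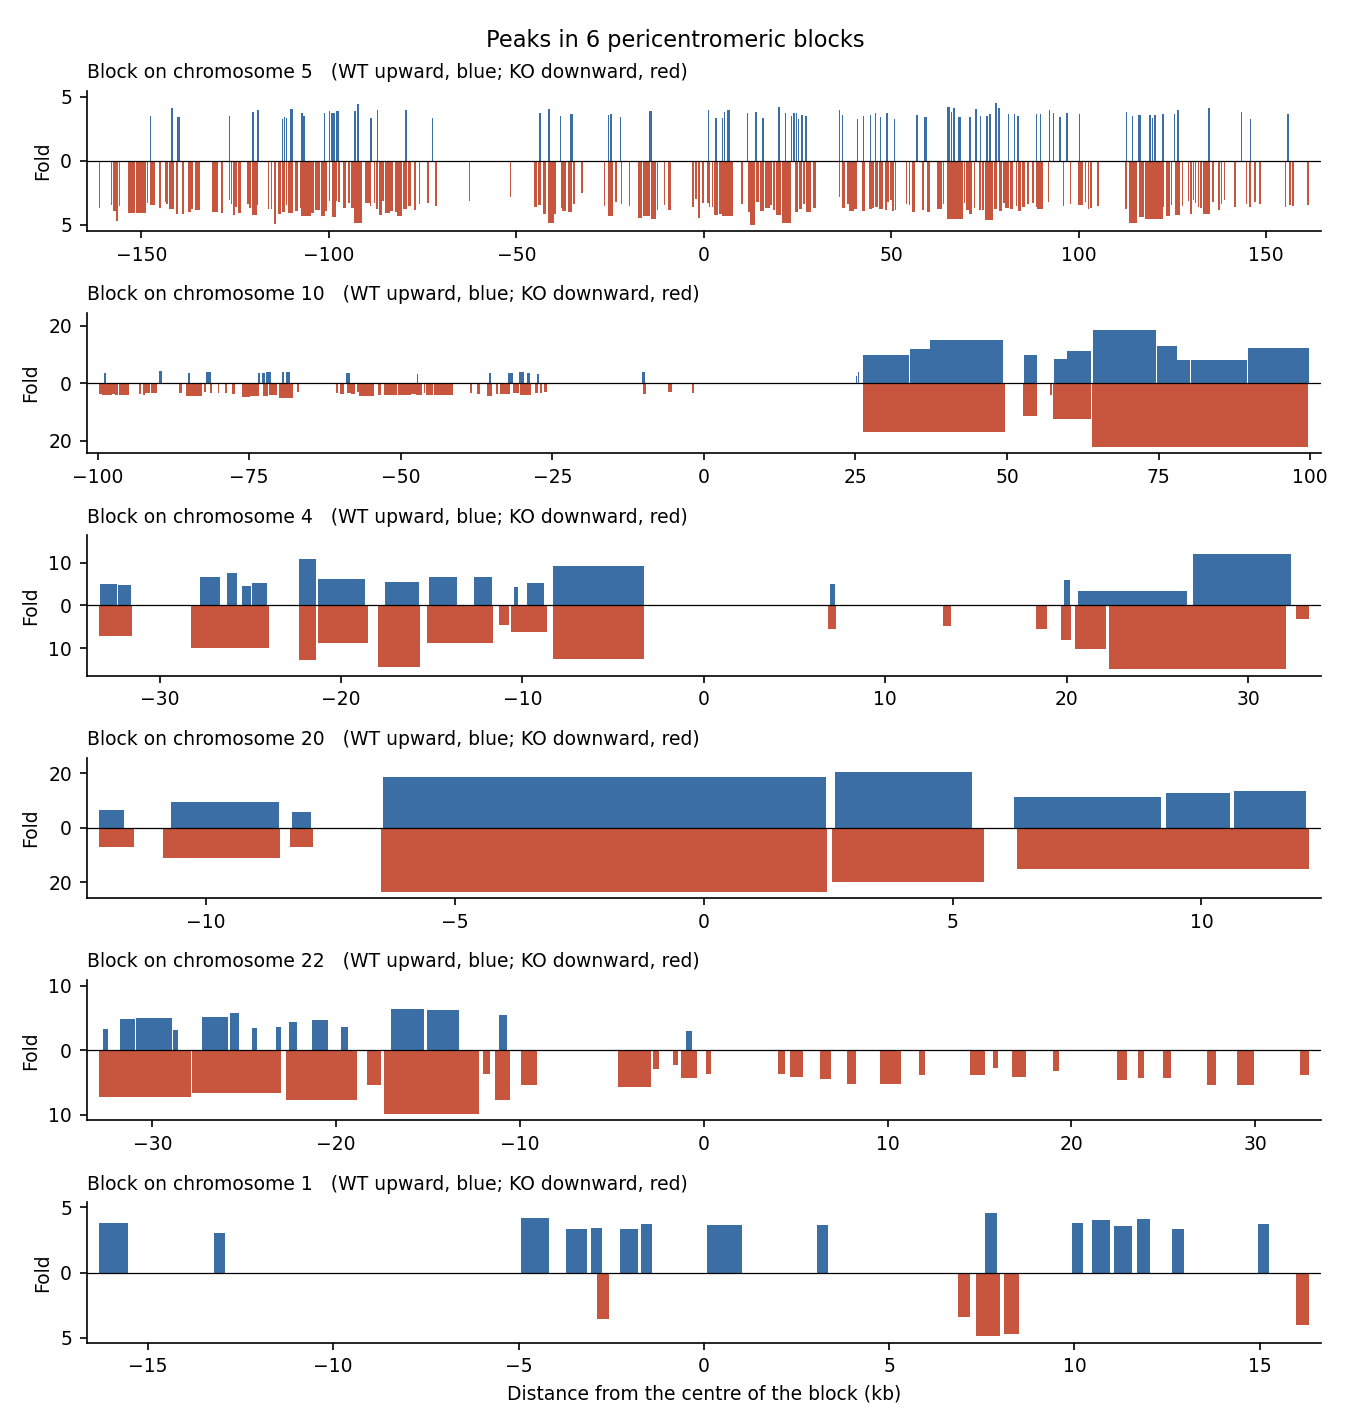
Peaks of 6 blocks drawn by their distance from the block's centre (kb) and their fold, WT upward in blue and KO downward in red, each panel on its own scale. The chromosome 20 peaks have like borders in both lists, the chromosome 5 block has 92 WT and 196 KO peaks, and the chromosome 1 block has 16 WT and 5 KO peaks.

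Further along the chromosome 5 interval a second block, from 49599275 to 49667413, showed like extents. It had 6 WT and 5 KO peaks with 11200 and 11718 bases. Its highest fold was 14.6 in WT, on a peak of 2298 bp, and 20.0 in KO, on a peak of 5765 bp. The KO peak also covered the neighbouring WT peak of fold 6.30 and q-value 1.03e-49. At the lower end of the block the peak starting at 49599387 in WT had a fold of 4.76. That starting at 49599275 in KO had 11.1. Their q-values were 2.77e-53 in WT and 3.15e-150 in KO. A chromosome 22 WT peak of fold 4.79 had a q-value of 1.56e-10, so a low WT fold here did not mean a weak q-value.

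Chromosome 4 stood out by its median fold, 6.04 in WT and 5.87 in KO, the highest of the 9 intervals. A fold of 6 and above was reached by 20 of 39 WT and 22 of 44 KO peaks. They lay mostly in blocks from 49091293 to 49158001 and from 49631216 to 49657926, whose bases were 30863 and 37688, and 18134 and 23222. The highest peaks had folds of 12.05 in WT (5412 bp from 49151605) and 14.9 in KO (9797 bp from 49146966), and a KO peak from 49641508 to 49646826 had 14.6. The gene nearest to both blocks was CWH43, a gene linked to the lipid part of GPI anchors. The only WT regions of fold 6 and above without any KO peak were also here, on chromosome 4 from 50265848 to 50266301 (fold 7.61) and from 51125096 to 51125533 (fold 6.06), each under 1 kb wide.

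Chromosome 1 was the only interval with a large block of fewer KO bases. From 124941928 to 124974582 it had 16 WT peaks with 7276 bases and 5 KO peaks with 2098. The WT folds were low, from 3.06 to 4.56, and the KO folds ran from 3.43 to 4.90. Its neighbour from 125068103 to 125184676 had 31 WT and 22 KO peaks with 35374 and 46587 bases. The strongest WT peak there, from 125167911 to 125171196, had a fold of 15.5, and the KO peak over it was 10409 bp wide with a fold of 16.9.

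On chromosome 2 the widest WT peaks of all intervals lay in the immunoglobulin kappa light chain locus IGK. One spanned 21300 bp from 89787222 to 89808521 at fold 8.26, the other 13957 bp from 89772557 to 89786513 at fold 8.66. The KO list held the same places with 21292 and 14057 bp and folds of 8.30 and 8.84, so neither width nor height differed by much. Elsewhere on the chromosome a peak at 91420784 to 91423669 had a KO fold of 15.9. The WT peak there, 2476 bp wide, had 7.96. Their q-values were 4.09e-115 in KO and 5.67e-48 in WT. A chromosome 10 WT peak of fold 8.11 had a q-value of 2.84e-29, so fold and q-value did not rank WT peaks alike. From 94167156 to 94189952 there were 2 WT and 13 KO peaks with 602 and 6620 bases.

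Chromosome 18 had the fewest peaks in both lists, and chromosomes 17 and 22 had the lowest top folds. On chromosome 18, a narrow peak of 731 bp had a WT fold of 11.7 and a KO fold of 12.9. It stood in a block of 3 WT and 11 KO peaks, and 1 of these, from 20579441 to 20579739, was the only KO region of fold 6 and above without a WT peak (fold 6.52).

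On chromosome 17 the highest folds were 7.08 in WT and 10.1 in KO, 272 and 271 kb from the potassium channel gene KCNJ18. On chromosome 22 they were 6.37 and 9.92, in a block from 10710859 to 10776696 with 15 WT and 29 KO peaks and 11762 and 34468 bases. All 22 WT peaks of chromosome 22 met a KO peak, where 20.1% of the WT list met none. Of its 80 KO peaks 14 met a WT peak and 66 did not, where 49.4% of the KO list met none.

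In windows of 1 Mb the difference was concentrated. Peaks were found in 32 of 53 windows, with more KO bases in 29 and fewer in 3. Windows outside the intervals were not counted, and other intergenic peaks had 1.60 times as many bases in KO. The 5 windows with the largest gain made up 64.5% of the whole difference. They were chromosome 5 from 46 to 47 Mb with 110429 more bases in KO, chromosome 10 from 41 to 42 Mb with 37332, chromosome 20 from 31 to 32 Mb with 29315, chromosome 10 from 38 to 39 Mb with 24980 and chromosome 22 from 10 to 11 Mb with 22706. In the window of chromosome 10 from 38 Mb the number of peaks was 10 in WT and 60 in KO. Fewer KO bases were found on chromosome 1 from 124 to 125 Mb (KO minus WT -5178), chromosome 5 from 47 to 48 Mb (-999) and chromosome 4 from 50 to 51 Mb (-707).

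A stretch of chromosome 7 had another profile. On chromosome 7, 264 WT and 795 KO intergenic peaks lay between 57 and 65 Mb, a ratio of 3.01 (2.62 to 3.46), above the 1.60 of the 9 intervals. They were low, with 1 WT and 2 KO peaks of fold 6 and above. Intergenic peaks on unplaced or alternate sequences were closer to the pericentromeric ones. They numbered 424 and 572, a ratio of 1.35 (1.19 to 1.53), with 14.6% and 14.5% at fold 6 and above. Their ratio of bases was 2.11, against 1.78 in the 9 intervals.

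The bounds of the intervals did not separate dense from sparse stretches everywhere. In the 18 stretches of 1 Mb just inside a bound there were 317 WT and 493 KO intergenic peaks, and in those just outside it 119 and 219. Single bounds differed, with more WT peaks inside at 9, more outside at 6 and none on either side at 3. In KO there were more inside at 10 bounds and more outside at 6. Peaks were denser outside at the upper bounds of chromosomes 2, 4 and 5 and the lower bounds of chromosomes 2 and 20 in both lists. Without the lower bound of chromosome 5 the totals were 225 and 297 inside and 96 and 137 outside. Just outside, the run of chromosome 5 below 46 Mb held the most. The highest fold just outside any bound was 5.37 in WT and 7.09 in KO, both on chromosome 2 below 89 Mb. KO folds also reached 6.48 on chromosome 18 above 21 Mb and 6.37 on chromosome 20 below 25 Mb.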

How the data were processed

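H3K9me3 ChIP-seq was listed for 293T cells of 2 genotypes, with 3 ChIP and 3 input libraries each. Reads were processed with HISAT2 and the build hg38, per the submitters' processing notes. The sources used here do not name a peak caller, its settings or any pooling of replicates. The authors deposited 1 annotated peak list per genotype, with a fold enrichment (a ratio) and a q-value (read as an adjusted p-value) for each peak. The columns are not defined further in the file headers, and positions were read as counted from 1.

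Peaks were selected by midpoint and class, compared by overlap of at least 1 bp, merged into regions and joined into blocks at up to 50 kb. Shares have Wilson 95% intervals, differences of shares Newcombe's, and ratios of peaks the Wilson interval turned into a ratio. A ratio of 2 such ratios has a log-normal interval from the 4 counts. The grid of fold values had steps of 0.0788 (WT) and 0.0772 (KO), with a tolerance of 1.5e-05. No test between genotypes was possible with 1 list each. The overlap and interval functions were tested on simulated data. Gene positions and the promoter came from RefSeq (GRCh38.p14), the same build.

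The peaks named are the 10 of highest fold and the 5 widest of each list, the highest of each interval, and the 5 windows of largest gain or loss (3 windows had a loss). Where overlap, fold or neighbours made further regions stand out, these were chosen after their values were seen. The members and lists were chosen with earlier results of these data known. Alternatives covered fold limits, list length, joining, overlap, class and each interval left out. Python 3.11.15, pandas 2.3.3 and scipy 1.17.1 were used.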

Additional observations from a re-analysis of the deposited data

How the results depend on the processing

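No paired analysis was possible because the lists hold no value per replicate, and no replicate could be left out. The pooled median fold was 3.69. Among peaks at or above it the ratio of peaks was 1.35, the excess over other intergenic peaks 1.25, and the shares meeting the other list were 83.3% (WT) and 44.8% (KO). From fold 6 the ratio was 1.10 for peaks and 1.51 for bases, the excess over other intergenic peaks turned to 0.730, and the shares were 96.1% and 62.4%. Set against all peaks of the other list, an alternative chosen after seeing the data, they were 97.4% and 98.8%. With lists of equal length the ratio was 1.38, the excess 1.37 and the WT share 83.4%. With peaks within 1 kb joined the ratio was 1.32 and the excess turned to 0.966. Requiring 50% of both peaks gave 32.9% and 20.6%, and allowing 1 kb gave 93.2% and 59.3%. Weighted by width, the median fold was 5.90 in WT and 4.82 in KO. Unweighted, it was 4.24 and 3.97 without the interval of chromosome 5, against 3.99 and 3.82 with all intervals. With each interval left out in turn, the ratio of peaks ran from 1.48 to 1.71, that of bases from 1.61 to 1.86 and the excess from 1.06 to 1.23. The cause of these shifts was not tested. More peaks and bases in KO were found under every alternative run, but from fold 6 the interval of the ratio of peaks held 1 (0.812 to 1.50). With no read counts, depth could not be set beside any value.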

Other observations

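The same intervals held 71 WT and 120 KO peaks of other annotation classes, a ratio of 1.69 (1.26 to 2.26), with 70483 and 118625 bases. Fold 6 was reached by 3 WT peaks (4.23%) and 6 KO peaks (5.0%) among them, where the whole lists had 2.56% and 2.84%. Of the protein-coding genes the authors assigned to them, several encode zinc finger proteins, a class of DNA-binding factors. ZNF37A had 6 WT and 5 KO peaks, ZNF33A 2 and 4, ZNF33B 3 and 4, and ZNF514 1 and 2. ZNF2 had 7 KO peaks with 2530 bases and a top fold of 3.87, and no WT peak. Of the 120 KO peaks of these classes 69 met no WT peak, where 49.4% of the KO list met none. MRPS5, which encodes a mitochondrial ribosomal protein, had 8 WT and 4 KO peaks but 9744 and 13661 bases. AC092835.1 had 11 and 15 peaks with 12986 and 21708 bases, and AL117339.5 had 5 in each with 5283 and 9282. NINL had 2 and 3 peaks, GAB4 3 and 4, and PARP8 2 in each.

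Some peaks that the authors' annotation places between genes met a noncoding gene or pseudogene in RefSeq. DUX4L44, a pseudogene of the DUX4 family on chromosome 22, met 1 WT peak of fold 4.94 and 2 KO peaks of up to fold 8.84. FRG1BP on chromosome 20 met 1 and 2 peaks, and LINC00342 on chromosome 2 met 2 and 3, with the highest folds at 5.35 and 6.83. The zinc finger pseudogene ZNF72AP on chromosome 22 met 2 KO peaks of up to fold 4.44 and no WT peak. Of the KO list, 49.4% met no WT peak.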
